A study of Mus musculus with 12 samples.

Results

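The RNA exosome is a barrel of 9 subunits, with catalytic subunits attached, that degrades and trims RNA from its 3′ end, and its subunits are encoded by Exosc1 to Exosc10. The transcripts of these 10 genes are described here, found by symbol and Ensembl identifier (GENCODE mouse release 21, GRCm38) among the 55573 genes of the count tables. The study sequenced poly(A) RNA of single mouse oocytes at the germinal vesicle (GV) stage, before the first meiotic division. Fractions of oocytes were sequenced to illustrate how spiked-in ERCC RNA can serve to scale such libraries. The study's methods give the donor as a healthy female of the B6D2F1 cross aged 12 weeks and the culture as M2 medium with milrinone, which holds oocytes at the GV stage. There were 12 libraries in 6 groups of 2: whole oocytes whose cDNA was amplified for 10, 14 or 18 cycles, and 1/2, 1/4 or 1/8 of an oocyte. The 6 whole-oocyte libraries came from different oocytes, and the fractions, which the methods place at 18 cycles, were taken from the lysates of 2 further oocytes. No group carries an engineered allele or a drug that the others lack, and the same amount of ERCC RNA went into every lysate.

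In the barrel, Exosc1, Exosc2 and Exosc3 form a cap of RNA-binding S1 and KH domains over a ring of subunits related to the bacterial enzyme RNase PH. The ring is built of pairs, in each of which a subunit of the Rrp41 type (Exosc4, Exosc5 or Exosc6) meets one of the Rrp42 type (Exosc9, Exosc8 or Exosc7, in that order). The mammalian ring has no catalytic activity of its own. Decay is carried out by attached nucleases, among them Exosc10, a distributive 3′–5′ exonuclease of the nucleus and nucleolus that also trims ribosomal RNA precursors. A fully grown oocyte is largely silent in transcription and lives on stored messages, so that stability and decay of RNA shape its contents.

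The label oocyte was checked against markers, in counts per 1000000 gene counts (CPM). All 10 oocyte markers, among them the zona pellucida genes, Gdf9 and Bmp15, were detected in every library. Their summed level was 24234 and 21882 CPM at 10 cycles, 24158 and 25357 at 14 and 7119 and 5891 at 18. It was 9169 and 8825 CPM in 1/2, 12996 and 13939 in 1/4 and 19480 and 20090 in 1/8 of an oocyte. Gdf9 was the most abundant of them in all libraries except replicate 1 of 1/2 and replicate 2 of 1/8, where Ooep led. The oocyte markers were thus lowest in whole oocytes at 18 cycles, and their part in the differences described here was not tested. Of 8 markers of granulosa and cumulus cells, Foxl2 and Fshr were at 0 in 7 and 9 libraries. Amh, Inhba and Hsd17b1 were at 0 in 3, 2 and 5 libraries. Cyp19a1, Nr5a2 and Inha were detected in every library, at up to 46.1, 46.6 and 34.1 CPM. The list summed to between 24.03 and 134 CPM, led by Nr5a2 or Cyp19a1. The 5 theca and stroma markers reached 31.6 CPM in replicate 1 at 10 cycles, most of it Star at 24.6 CPM, and at most 9.27 CPM elsewhere. The 5 blood markers reached at most 5.09 CPM, almost all of it Lyz2.

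Depth moved with the groups. Gene counts were 11597144 and 9189672 at 10 cycles, 12349577 and 13806199 at 14 and 3017069 and 1706478 at 18. Fractions had 4024670 and 3598549 in 1/2, 4027907 and 5049518 in 1/4 and 11404262 and 1702062 in 1/8. All 10 exosome genes were detected in all 12 libraries and passed the filter of at least 5 counts in at least 2 libraries. Their lowest counts were 2 for Exosc2 in replicate 2 at 18 cycles and 7 for Exosc6 in replicate 2 of 1/8, both libraries among the 3 of fewest counts. Counting intervals given for such values are exact Poisson intervals at 95% and cover counting error only, since amplified reads without molecular identifiers are not independent molecules.

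At 10 and 14 cycles the exosome mRNAs were of moderate abundance, with 7 subunits close together per length and 3 below them. Levels between genes were compared as CPM per kilobase of the principal transcript, as mean ± SD over the 4 libraries at 10 and 14 cycles. Exosc8 stood first with 59.7 ± 3.51, followed by Exosc1 with 59.5 ± 2.71 and Exosc4 with 47.4 ± 7.96. Next came Exosc3 with 41.9 ± 5.09, Exosc9 with 41.8 ± 4.98, Exosc7 with 37.8 ± 1.98 and Exosc10 with 37.2 ± 0.467 CPM per kilobase. Exosc8 and Exosc1 did not differ beyond their spread, nor did the neighbours from Exosc4 down to Exosc10. A gap followed, beyond the spread, to Exosc5 with 16.1 ± 2.49, Exosc2 with 10.6 ± 0.732 and Exosc6 with 8.53 ± 2.03, of which the last pair overlapped. The catalytic subunit Exosc10 was the steadiest of the 10 in these libraries and Exosc6 the least abundant per length. The order depended on the length used, and without it Exosc10 came first. With the length of all annotated exons, a choice made after seeing the data, Exosc4 came first and Exosc5 last.

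**Figure D1:**
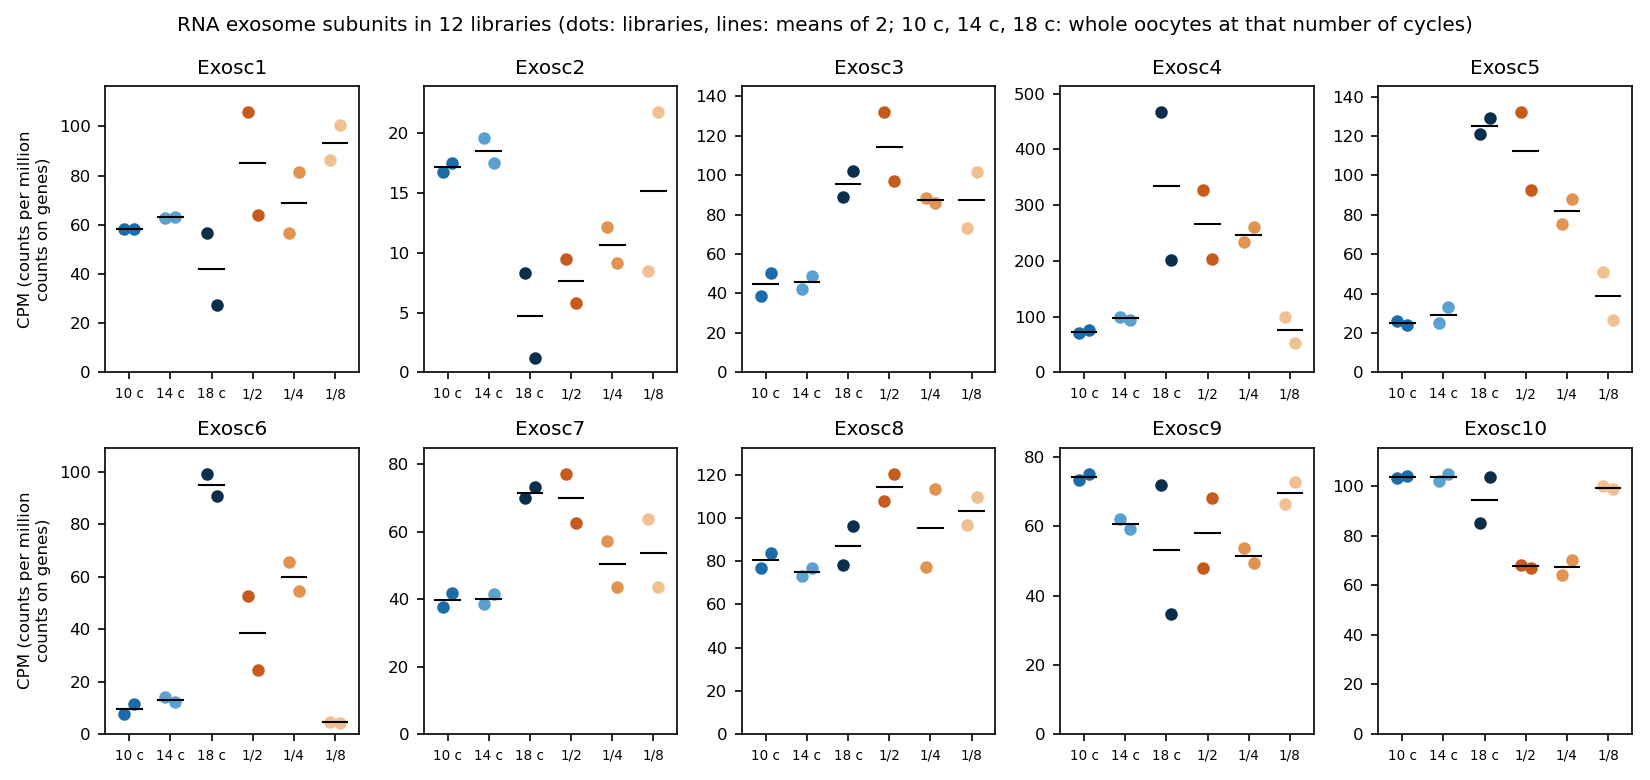
Level of each exosome subunit in the 12 libraries. Each panel is a gene with its own linear axis from 0 (CPM), each point a library, and each line the mean of the 2 libraries of a group; 10 c, 14 c and 18 c are whole oocytes at that number of cycles. Exosc6 spans 4.11 to 99.4 CPM, Exosc10 64.3 to 105 CPM.

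The cap subunits did not move together across cycle numbers. Exosc1, the Csl4 subunit of the cap, is at chr19:41922292-41933423 on the minus strand. It stood at 58.4 and 58.1 CPM at 10 cycles, 62.7 and 63.3 at 14 and 56.7 and 27.5 at 18. The fractions gave 106 and 64.2 CPM for 1/2, 56.6 and 81.4 for 1/4 and 86.5 and 100.5 for 1/8. Exosc1 was lowest in replicate 2 of the whole oocytes at 18 cycles, and both 1/8 libraries lay above all 6 whole oocytes.

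Exosc2, the Rrp4 subunit, at chr2:31670715-31681349 on the plus strand, was the scarcest cap message. It stood at 16.7 and 17.5 CPM at 10 cycles, 19.6 and 17.5 at 14 and 8.29 and 1.17 at 18. The 18-cycle values rest on 25 and 2 counts, with counting intervals of 5.36 to 12.2 and 0.142 to 4.23 CPM. These intervals do not overlap, and both values lie below all 4 libraries at 10 and 14 cycles. In fractions Exosc2 was at 9.44 and 5.84 CPM in 1/2, 12.2 and 9.11 in 1/4 and 8.51 and 21.7 in 1/8. The fractions overlapped each other, and the highest value of all 12 libraries was in replicate 2 of 1/8, on 37 counts.

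Exosc3, the Rrp40 subunit, which completes the cap, at chr4:45316613-45342732 on the minus strand, took another course. It stood at 38.9 and 50.6 CPM at 10 cycles, 42.3 and 48.8 at 14 and 88.8 and 102 at 18. The fractions gave 132 and 97.0 CPM for 1/2, 88.4 and 85.9 for 1/4 and 73.4 and 102 for 1/8. All 8 libraries that had 18 cycles lay above the 4 that had fewer, and 1/2 and 1/8 overlapped the whole oocytes at 18 cycles, while 1/4 lay just below them.

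In the ring, the Rrp41-type subunits held the widest range. Exosc4, the Rrp41 subunit, which meets Exosc9, is at chr15:76327397-76330677 on the plus strand. It stood at 70.5 and 75.3 CPM at 10 cycles, 99.6 and 94.8 at 14 and 467 and 202 at 18. The fractions gave 328 and 204 CPM for 1/2, 234 and 260.4 for 1/4 and 100.1 and 53.5 for 1/8. Whole oocytes at 18 cycles, 1/2 and 1/4 lay above all other libraries in this gene, and of the 1/8 libraries one lay just above the range of 10 and 14 cycles and the other below it.

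Exosc5, the Rrp46 subunit, which meets Exosc8, at chr7:25659164-25671368 on the plus strand, took a similar course. It stood at 26.0 and 23.9 CPM at 10 cycles, 24.9 and 33.2 at 14 and 121 and 129 at 18. The fractions gave 132 and 92.8 CPM for 1/2, 75.5 and 88.1 for 1/4 and 51.2 and 26.4 for 1/8. The groups of whole oocytes at 18 cycles and of 1/8 did not overlap, and replicate 2 of 1/8 lay among the libraries at 10 and 14 cycles.

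Exosc6, the Mtr3 subunit, which meets Exosc7, is a gene of a single exon at chr8:111056339-111057664 on the plus strand, and it varied most. It stood at 7.67 and 11.3 CPM at 10 cycles, 14.1 and 12.2 at 14 and 99.4 and 90.8 at 18. The fractions gave 52.7 and 24.5 CPM for 1/2, 65.5 and 54.5 for 1/4 and 4.74 and 4.11 for 1/8. The 1/8 values rest on 54 and 7 counts, with counting intervals of 3.56 to 6.18 and 1.65 to 8.47 CPM. Exosc6 was thus highest in whole oocytes at 18 cycles, intermediate in 1/2 and 1/4, and in 1/8 lower than in any other library.

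The Rrp42-type subunits moved less. Exosc7, the Rrp42 subunit, at chr9:123113215-123136129 on the plus strand, stood at 37.6 and 41.7 CPM at 10 cycles, 38.5 and 41.5 at 14 and 69.9 and 73.3 at 18. Its fractions gave 77.3 and 62.5 CPM for 1/2, 57.3 and 43.6 for 1/4 and 63.8 and 43.5 for 1/8. Every library of 18 cycles lay above those of 10 and 14 cycles, replicate 2 of 1/4 and of 1/8 by the least.

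Exosc8, the Rrp43 subunit, at chr3:54728678-54735393 on the minus strand, stood at 76.9 and 83.9 CPM at 10 cycles, 73.0 and 76.8 at 14 and 78.2 and 96.1 at 18. Its fractions gave 108 and 121 CPM for 1/2, 77.5 and 113 for 1/4 and 96.5 and 109.9 for 1/8. Among whole oocytes those at 10 and 18 cycles overlapped and those at 14 lay just below both. Both libraries of 1/2 and of 1/8 lay above all whole oocytes, 1 of 1/8 by little. Exosc9, the Rrp45 subunit and on the same chromosome at chr3:36552606-36565727 on the plus strand, stood at 73.6 and 75.3 CPM at 10 cycles, 62.1 and 59.2 at 14 and 71.9 and 34.6 at 18. Its fractions gave 48.0 and 68.4 CPM for 1/2, 53.6 and 49.3 for 1/4 and 66.4 and 72.9 for 1/8. Exosc9 was lowest in the library in which Exosc1 and Exosc2 were lowest too, replicate 2 at 18 cycles.

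Exosc10, the nuclear exonuclease, at chr4:148558429-148582401 on the plus strand, was among the steadiest. It stood at 103 and 104 CPM at 10 cycles, 102 and 105 at 14 and 85.2 and 104 at 18. The fractions gave 68.3 and 67.0 CPM for 1/2, 64.3 and 70.3 for 1/4 and 99.9 and 98.7 for 1/8. The 1/2 and 1/4 libraries lay below the other 8, and the 1/8 libraries overlapped the whole oocytes. All 10 genes are annotated as protein coding.

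The range over the 12 libraries set the subunits apart. The highest library held 24.2 times the lowest for Exosc6, 18.5 times for Exosc2, 8.73 times for Exosc4 and 5.52 times for Exosc5. The value for Exosc2 rests on 2 counts in replicate 2 at 18 cycles, and its next lowest library, replicate 2 of 1/2, stood at 5.84 CPM. The highest library held 3.84 times the lowest for Exosc1, 3.39 for Exosc3, 2.18 for Exosc9, 2.06 for Exosc7, 1.65 for Exosc8 and 1.63 for Exosc10. The lowest library of Exosc1, at 27.5 CPM, was again replicate 2 at 18 cycles, and the next, replicate 1 of 1/4, stood at 56.6 CPM. Among the 8859 genes with a mean of at least 10 CPM, the coefficient of variation of Exosc6, 93.8%, was at the 99.1 percentile, and that of Exosc4, 68.9%, at the 93.2 percentile. Exosc5 with 62.8% was at the 89.0 percentile and Exosc2 with 50.9% at the 75.6 percentile. Exosc8 with 18.3%, Exosc10 with 19.0% and Exosc9 with 20.7% were at the 7.18, 8.47 and 11.6 percentiles. The exosome thus holds genes near both ends of the variation across these 8859 genes, which were not matched to the subunits in abundance.

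Between 14 and 10 cycles no exosome subunit passed the test. The comparison asks whether 4 more cycles change the measured profile. Genes were tested with edgeR's quasi-likelihood test on counts scaled by median-ratio size factors, with Benjamini-Hochberg adjustment over the 17532 genes of the fit and a threshold of 0.01. The log2 differences of the 10 subunits ran from -0.33 ± 0.26 (SE, 2 libraries against 2) for Exosc9 to 0.44 ± 0.27 for Exosc6. With edgeR 0 of 10 were higher and 0 lower, against 0% and 0% of all genes, 0 reached an unadjusted p of 0.05 in either direction, and DESeq2 called 0. Among all genes 276 higher and 237 lower ones reached that unadjusted p, and DESeq2 called 1 and 1. Differences of the size of these SEs could not have been detected with 2 libraries a group.

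At 18 cycles against 10, ring subunits of the Rrp41 type were higher together with Exosc7 and the cap subunit Exosc3. Exosc6 showed the largest difference, 3.59 ± 0.29 on the log2 scale (SE, 2 libraries against 2; edgeR's quasi-likelihood test, adjusted p = 4.95e-05), or 12.1-fold, and both 18-cycle libraries lay above both at 10 cycles. Exosc5 differed by 2.59 ± 0.23 (edgeR's quasi-likelihood test, adjusted p = 7.11e-05) and Exosc4 by 2.44 ± 0.30 (adjusted p = 0.000239), again with both libraries above both. Exosc3 differed by 1.36 ± 0.24 (edgeR's quasi-likelihood test, adjusted p = 0.00164) and Exosc7 by 1.12 ± 0.22 (adjusted p = 0.00286), likewise without overlap. These 5 of 10 subunits stand beside 12.3% of all genes called higher, and 0 of 10 beside 10.8% called lower. The median log2 difference was 0.75 over the subunits and -0.29 over all 17532 genes.

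The other subunits did not pass at 18 against 10 cycles. Exosc2 had the most negative value, -1.46 ± 0.52, and missed the threshold (edgeR's quasi-likelihood test, adjusted p = 0.0486), although both 18-cycle libraries lay below both at 10 cycles. It was the 1 subunit lower at an unadjusted p under 0.05 with edgeR, beside 23.9% of all genes, while 5 were higher, beside 21.7%. DESeq2 called 0 lower, and without the filter on low counts Exosc2 passed. Exosc1 differed by -0.19 ± 0.27, Exosc9 by -0.21 ± 0.27, Exosc8 by 0.38 ± 0.22 and Exosc10 by 0.13 ± 0.21. Without replicate 1 at 10 cycles, Exosc3 at 1.15 and Exosc7 at 1.01 no longer passed, and without replicate 2 at 10 cycles Exosc7 at 1.24 did not. Without replicate 1 at 18 cycles, Exosc2 at -3.49 passed, and without replicate 2 at 18 cycles it was at -0.83 and did not, while Exosc1 turned to 0.18 and Exosc9 to 0.17.

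Scaling to the ERCC molecules shifts the comparison as a whole, because whole oocytes at 18 cycles held few ERCC counts even for their depth. There were 1611 and 1474 ERCC counts at 18 cycles, against 35852 and 25528 at 10 and 35616 and 39046 at 14. Part of that gap is depth, since gene counts at 18 cycles were also the lowest of the whole oocytes. Each library at 18 cycles held 30 detected ERCC molecules, against 52 to 59 at 10 and 14, which limits these size factors. With ERCC size factors the median log2 difference of all genes from 10 to 18 cycles was 1.96, in place of -0.29, and 8348 genes were higher and 0 lower, in place of 2161 and 1893. Under that scaling 9 of the 10 subunits were called higher, beside 47.6% of all genes. Exosc1 at 2.13, Exosc9 at 2.11 and Exosc2 at 0.88 turned from negative to positive, Exosc2 without passing (edgeR's quasi-likelihood test, adjusted p = 0.283). Exosc10 at 2.32, Exosc1 and Exosc9 then lay close to the median of all genes, while Exosc4 at 4.80, Exosc5 at 4.81 and Exosc6 at 5.80 lay above it. The higher levels of Exosc3 to Exosc7 at 18 cycles held under median ratio, TMM and ERCC scaling.

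Against 14 cycles the 18-cycle oocytes gave values of the same size, and both comparisons share the 18-cycle libraries. Exosc6 was higher by 3.16 ± 0.28 and Exosc5 by 2.41 ± 0.23 on the log2 scale (edgeR's quasi-likelihood test, adjusted p = 5.91e-05 and 8.12e-05). Exosc4 was higher by 2.06 ± 0.30, Exosc3 by 1.37 ± 0.24 and Exosc7 by 1.14 ± 0.22 (edgeR's quasi-likelihood test, adjusted p = 0.000512, 0.00154 and 0.00251). In each of these 5 genes both 18-cycle libraries exceeded both 14-cycle libraries. The 5 of 10 called higher stand beside 12.6% of all genes, and the 0 called lower beside 10.7%. Exosc2 at -1.54 ± 0.52 did not pass (edgeR's quasi-likelihood test, adjusted p = 0.0383); it was the 1 subunit lower at an unadjusted p under 0.05, beside 24.5% of all genes, and DESeq2 called 0 lower. At that p 6 subunits were higher, the 5 called and Exosc8, beside 22.1% of all genes. Exosc8 at 0.52 ± 0.22, Exosc10 at 0.17 ± 0.21, Exosc9 at 0.12 ± 0.27 and Exosc1 at -0.27 ± 0.27 did not pass either. Without replicate 1 or without replicate 2 at 14 cycles, Exosc3 (1.29 or 1.47) and Exosc7 (1.11 or 1.19) missed the threshold, and without replicate 1 at 18 cycles Exosc2 at -3.56 passed, while without replicate 2 at 18 cycles it was at -0.90 and did not.

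**Figure D2:**
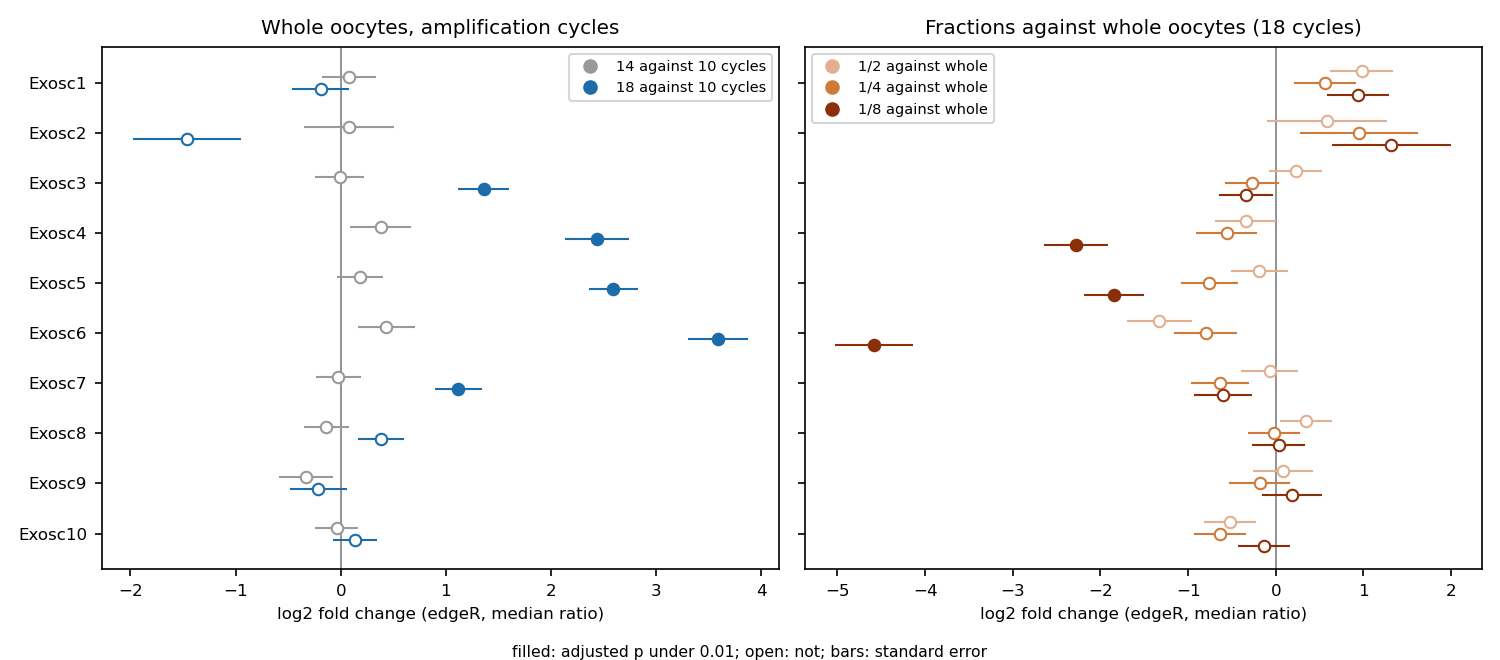
Log2 fold change of each exosome subunit in 14 and 18 against 10 cycles (left) and in 1/2, 1/4 and 1/8 against whole oocytes at 18 cycles (right), with edgeR and median-ratio size factors (bars, SE; filled points passed the adjusted p threshold of 0.01). At 18 against 10 cycles Exosc6 is at 3.59 and Exosc2 at -1.46, and in 1/8 of an oocyte against whole oocytes at 18 cycles Exosc6 is at -4.58.

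The fractions ask whether counts scaled to ERCC RNA follow the amount of oocyte lysate used. Fractions and whole oocytes at 18 cycles were fitted together over 14788 genes, and the whole oocytes are the ones that the cycle comparisons use. With ERCC size factors, 8 of 10 subunits were lower in 1/2 than in whole oocytes, beside 52.0% of all genes called lower by edgeR. In 1/4 the number was 9 of 10, beside 69.7%, and in 1/8 it was 10 of 10, beside 87.5%. None of the 10 subunits was called higher in 1/2, 1/4 or 1/8, beside 0%, 0% and 0% of all genes; 0 reached an unadjusted p of 0.05 in that direction with edgeR and DESeq2 called 0. Most genes are lower in these comparisons, so the members' counts say little about the exosome by themselves. They also depend on the reference. Against whole oocytes at 10 cycles, with ERCC factors in a fit of all 12 libraries, 4 subunits were higher and 0 lower in 1/2, with Exosc4 at 2.34, Exosc5 at 2.64 and Exosc6 at 2.51, beside 6.55% and 2.13% of all genes. In 1/4, 1 was higher and 0 lower, beside 0.870% and 7.75%, and in 1/8 all 10 were lower, beside 74.3%.

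Median log2 differences of all genes under ERCC scaling were -1.997 in 1/2, -2.69 in 1/4 and -4.92 in 1/8 of an oocyte. Each median was more negative than the fraction of lysate alone would give, and the reason was not tested. Seen per 1000 ERCC counts, Exosc10 stood at 159.5 and 120.1 in whole oocytes at 18 cycles, 29.999 and 23.0 in 1/2, 13.8 and 12.2 in 1/4 and 4.92 and 4.59 in 1/8. Exosc6 stood at 186 and 105, 23.1 and 8.41, 14.0 and 9.46, and 0.233 and 0.191 per 1000 ERCC counts in the same groups. At 10 cycles whole oocytes held 33.5 and 37.5 of Exosc10 and 2.48 and 4.07 of Exosc6 on this scale, and at 14 cycles 35.4 and 37.2 and 4.89 and 4.30. Both genes therefore descended from whole oocytes at 18 cycles to 1/8 without overlap, save that 1/2 and 1/4 overlapped for Exosc6, and whole oocytes at 18 cycles stood far above whole oocytes at fewer cycles.

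Relative to the all-gene median under ERCC scaling, the subunits divide by how far they lie from it. In 1/8, Exosc6 lay at -4.60 from the median on the log2 scale, Exosc4 at -2.44 and Exosc5 at -1.86. Exosc2 lay at 1.15 and Exosc1 at 0.81, and the other 5 subunits between -0.61 for Exosc7 and 0.05 for Exosc9. In 1/4 the distances ran from -0.83 for Exosc6 to 0.78 for Exosc2, and in 1/2 from -1.24 for Exosc6 to 0.96 for Exosc1. The fitted log2 differences themselves reached -9.52 ± 0.72 for Exosc6 in 1/8 (edgeR's quasi-likelihood test, adjusted p = 1.64e-15; both libraries below both whole oocytes), the largest size among the subunits. Exosc10 differed by -2.46 ± 0.49 in 1/2, -3.33 ± 0.51 in 1/4 and -5.04 ± 0.55 in 1/8 (edgeR's quasi-likelihood test, adjusted p = 7.37e-05, 2.69e-07 and 4.32e-12).

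The subunits not called in every ERCC comparison were Exosc1 and Exosc2. The cap as a whole did not share this, since Exosc3 was called lower in 1/2, 1/4 and 1/8, at -1.68, -2.96 and -5.27. Exosc1 at -1.04 ± 0.52 and Exosc2 at -1.50 ± 0.78 in 1/2 missed the threshold (edgeR's quasi-likelihood test, adjusted p = 0.0705 and 0.084). In 1/4 Exosc2 at -1.90 ± 0.78 missed it too (edgeR's quasi-likelihood test, adjusted p = 0.0243). With all 12 libraries in 1 fit, however, Exosc2 passed in 1/4, at -2.12. Single libraries decide several calls in 1/2. Without replicate 2 of 1/2, 2 subunits and 13.2% of all genes were called lower there, and without replicate 1 of 1/2, 6 subunits and 41.8% of all genes, Exosc8 at -1.80 and Exosc9 at -2.05 no longer among them. Without replicate 1 of the whole oocytes at 18 cycles 3 subunits and 21.1% of all genes were called in 1/2, Exosc1 at -1.13 was not called in 1/4 and Exosc2 at -1.11 was not called in 1/8. Without that library the uncalled values turned positive, to 0.14 for Exosc1 and 1.21 for Exosc2 in 1/2 and 0.78 for Exosc2 in 1/4, so their direction rests on 1 whole oocyte. Without replicate 2 of the whole oocytes at 18 cycles all 10 subunits and 60.4% of all genes were called in 1/2, with Exosc1 at -1.72 and Exosc2 at -2.43, and Exosc2 at -2.81 was called in 1/4. In 1/2 the subunits' counts thus followed the share of all genes called, whereas in 1/4 they did not follow it in every fit.

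With median-ratio size factors, which remove the shift of the bulk of genes, edgeR called few genes of any kind in 1/2 and 1/4 against whole oocytes at 18 cycles, and no exosome subunit. In 1/2 edgeR called 0 of 10 subunits higher and 0 lower, beside 0.0811% and 0.0406% of all genes; 1 subunit in each direction reached an unadjusted p under 0.05, beside 6.53% and 6.62% of all genes, and DESeq2 called 0 and 0. These were Exosc6 at -1.33 ± 0.37 (edgeR's quasi-likelihood test, adjusted p = 0.0846; both 1/2 libraries below both whole oocytes) and Exosc1 at 0.98 ± 0.36 (adjusted p = 0.206; both above both). In 1/4 edgeR called 0 higher and 0 lower, beside 0.0338% and 0.426% of all genes; 0 higher and 3 lower reached an unadjusted p under 0.05, beside 7.25% and 8.53% of all genes, and DESeq2 called 0 and 0. Those 3 were Exosc6 at -0.80 ± 0.36, Exosc5 at -0.76 ± 0.33 and Exosc10 at -0.63 ± 0.30; Exosc7 at -0.64 ± 0.33 did not reach it, and the highest value was that of Exosc2 at 0.95 ± 0.67. In CPM, both Exosc10 libraries of 1/2 and of 1/4 lay below both whole oocytes. The comparison between 1/4 and 1/2 is without the whole-oocyte libraries, but of lysates from the same 2 oocytes. There edgeR called 0 subunits higher and 0 lower, beside 0% and 0% of all genes. At an unadjusted p under 0.05, 0 subunits were higher and 0 lower, beside 6.26% and 6.21% of all genes. DESeq2 called 0 subunits, beside 15 genes higher and 11 lower. Values there ran from -0.57 ± 0.32 for Exosc5 and -0.57 ± 0.33 for Exosc7 to 0.53 ± 0.36 for Exosc6.

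In 1/8 of an oocyte the Rrp41-type ring subunits were lower than in whole oocytes at 18 cycles. Exosc6 differed by -4.58 ± 0.44 on the log2 scale (edgeR's quasi-likelihood test, adjusted p = 3.67e-06), or 23.9-fold. Exosc4 differed by -2.28 ± 0.37 and Exosc5 by -1.84 ± 0.34 (edgeR's quasi-likelihood test, adjusted p = 0.000148 and 0.000427). In all 3 genes both 1/8 libraries lay below both whole oocytes. These 3 of 10 subunits stand beside 8.71% of all genes called lower, and 0 of 10 beside 6.96% called higher. At an unadjusted p under 0.05 with edgeR, 1 subunit was higher, beside 18.3% of all genes. DESeq2 called 0 subunits higher, beside 1247 genes. The median log2 difference was -0.24 over the subunits and 0.02 over all genes. The 3 were called under TMM and median-ratio scaling. With ERCC factors they were called too, but so were all 10 subunits and 87.5% of all genes. The ERCC calls therefore do not set these 3 apart.

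The remaining subunits in 1/8 lay on both sides of whole oocytes at 18 cycles. Exosc2 at 1.32 ± 0.68 and Exosc1 at 0.94 ± 0.36 were the most positive and did not pass (edgeR's quasi-likelihood test, adjusted p = 0.155 and 0.0546). Exosc7 at -0.60 ± 0.33, Exosc3 at -0.34 ± 0.31, Exosc10 at -0.13 ± 0.29, Exosc8 at 0.03 ± 0.30 and Exosc9 at 0.18 ± 0.34 did not pass. The reference matters here. Set against whole oocytes at 10 cycles in a fit of all 12 libraries, edgeR called 0 of 10 subunits and 0% of all genes lower in 1/8, with Exosc4 at 0.16, Exosc5 at 0.74 and Exosc6 at -1.01.

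Against 1/4, the 1/8 libraries were lower in Exosc6 and Exosc4. Exosc6 differed by -3.78 ± 0.43 and Exosc4 by -1.72 ± 0.36 (edgeR's quasi-likelihood test, adjusted p = 4.39e-05 and 0.0036), with both 1/8 libraries below both 1/4 libraries. Exosc5 at -1.09 ± 0.33 did not pass (edgeR's quasi-likelihood test, adjusted p = 0.0352). The 2 of 10 called lower stand beside 3.43% of all genes, and the 0 called higher beside 1.54%. At an unadjusted p under 0.05 with edgeR, 0 subunits were higher, beside 11.9% of all genes. DESeq2 called 0 subunits higher, beside 384 genes. The other 7 subunits lay between -0.07 ± 0.30 for Exosc3 and 0.50 ± 0.29 for Exosc10. Exosc4 missed the threshold without replicate 1 of 1/4 (-1.75), without replicate 2 of 1/4 (-1.71) and without replicate 2 of 1/8 (-1.35).

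Summed over the complex, exosome mRNA made up 509.8 and 541.9 CPM at 10 cycles, 539 and 552 at 14 and 1146 and 860.3 at 18. The sum was 1062 and 807 CPM in 1/2, 785 and 856 in 1/4 and 651 and 633 in 1/8. All libraries of 18 cycles lay above those of 10 and 14 cycles, and the 1/8 libraries lay lowest among them. With 2 libraries a group an exact permutation test cannot give a p below 0.333, so none was made on the sums. Exosc4, Exosc5 and Exosc6, grouped after their values were seen, summed to 104 and 111 CPM at 10 cycles, 139 and 140.2 at 14, 687 and 422 at 18, 513 and 321 in 1/2, 375 and 403 in 1/4, then 156 and 84.0 in 1/8. The other 7 subunits summed to 406 and 431, 400.2 and 412, 459 and 438, 549 and 485, 409.9 and 453, and 495 and 549 CPM in the same order. The sum thus moved mainly with the Rrp41-type subunits from 10 to 18 cycles, and from whole oocytes at 18 cycles to 1/8. Between 10 cycles and 1/8 it moved mainly with the other 7, whose group means were 418 and 522 CPM. The group means of the Rrp41-type sum were 107 and 120 CPM there.

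The balance within the complex shifted with it. Cap messages summed to between 114 and 129.6 CPM at 10 and 14 cycles, to 154 and 131 at 18, and to between 157 and 247 in the fractions. The ring held 57.3% and 57.5% of exosome counts at 10 cycles, 57.9% and 57.5% at 14 and 79.2% and 72.8% at 18. It held 70.3% and 71.0% in 1/2, 71.8% and 71.2% in 1/4 and 58.8% and 49.0% in 1/8. Ring messages thus took the largest share in whole oocytes at 18 cycles and, in 1/8, a share near that at 10 and 14 cycles or below it. Exosc4 alone held 13.8% and 13.9% at 10 cycles and 40.7% and 23.5% at 18, while Exosc10 went from 20.3% and 19.2% to 7.43% and 12.1%.

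Partners in the ring occur one to one in the barrel, and the ratio of their messages per kilobase was taken in each library. Exosc4 over Exosc9 was 0.863 and 0.9003 at 10 cycles, 1.44 and 1.44 at 14, 5.85 and 5.26 at 18, 6.16 and 2.69 in 1/2, 3.93 and 4.75 in 1/4 and 1.36 and 0.661 in 1/8. Exosc5 over Exosc8 was 0.262 and 0.221, 0.265 and 0.334, 1.20 and 1.04, 0.946 and 0.596, 0.754 and 0.602, and 0.410 and 0.186 in the same order. Exosc6 over Exosc7 was 0.162 and 0.216, 0.291 and 0.233, 1.13 and 0.985, 0.541 and 0.311, 0.908 and 0.993, and 0.0589 and 0.0751. In all 3 pairs the Rrp41-type message gained on its partner in whole oocytes at 18 cycles, without overlap with 10 or 14 cycles, and in 1/8 the ratio lay below all other 18-cycle libraries. A ratio of reads per kilobase carries any bias between transcripts, so it gives the direction of the shift between libraries and not the stoichiometry of the messages.

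Exosc6, Exosc5 and Exosc4 have the highest G and C content of the 10. The principal transcript of Exosc6 holds 64.9% G and C, Exosc5 55.1%, Exosc4 54.9%, Exosc10 53.0%, Exosc8 52.2% and Exosc7 51.7%. Exosc2, whose range was second to that of Exosc6 only through the 2 counts of replicate 2 at 18 cycles, holds 51.3%. Exosc3 holds 49.1%, Exosc1 47.1% and Exosc9 44.5%. In the coding sequence alone the order begins with Exosc6 at 75.2%, Exosc4 at 63.4% and Exosc5 at 59.3%, and ends with Exosc8 at 47.6% and Exosc9 at 44.9%. Across the 10 subunits the log2 difference between 18 and 10 cycles had a Pearson r of 0.74 with the G and C content of the transcript (Spearman rho 0.77), and across 17513 genes an r of 0.36. Between 14 and 10 cycles, where edgeR called no gene and DESeq2 1 higher and 1 lower, r was 0.80 over the 10 subunits (rho 0.61) and -0.03 over all genes. For 1/8 against whole oocytes at 18 cycles, with median-ratio factors, r was -0.86 over the 10 subunits (rho -0.78) and -0.38 over 14776 genes. Genes are not independent replicates, the comparisons share the 18-cycle whole oocytes, and these values are a description without a test.

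**Figure D3:**
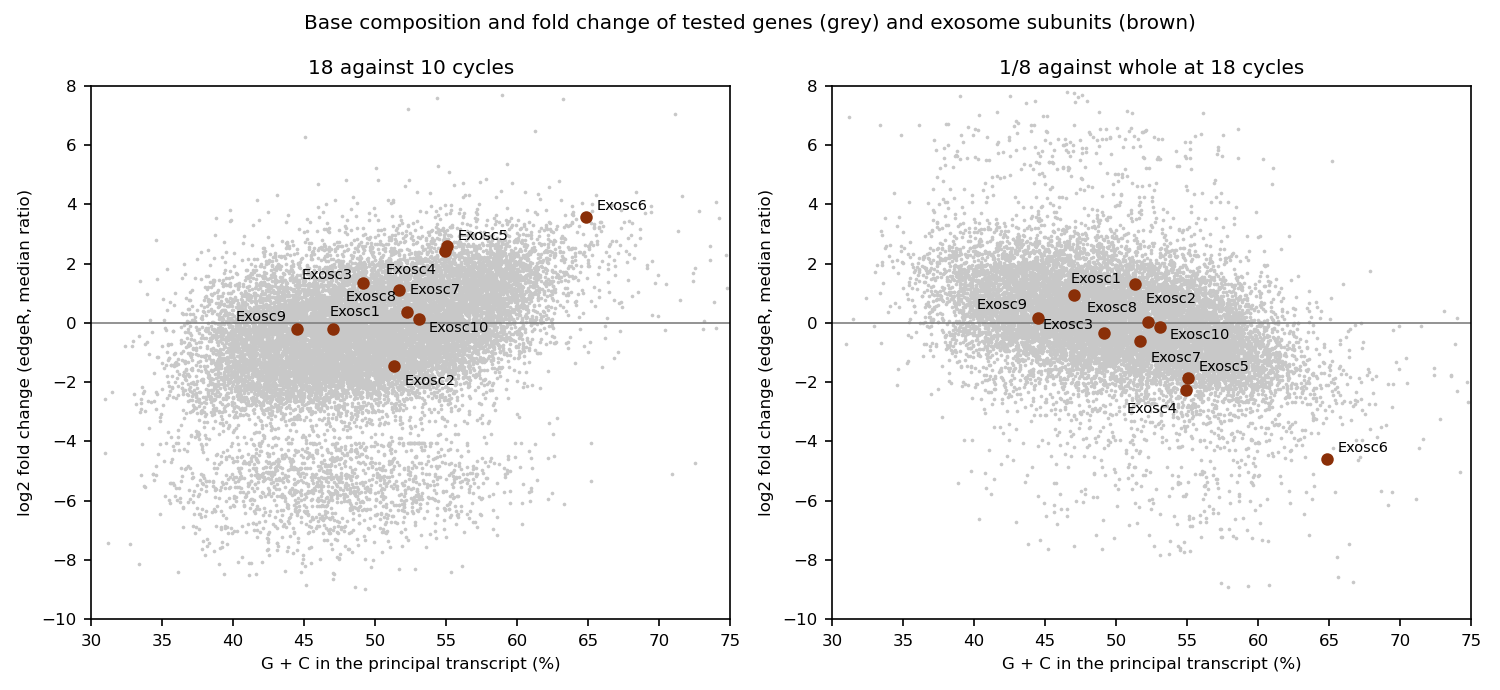
G and C content of the principal transcript (%, horizontal) and log2 fold change (edgeR, vertical) for all genes tested (grey) and the 10 exosome subunits (brown), with median-ratio size factors; the few genes outside the axes are not drawn. At 18 against 10 cycles Exosc6, with 64.9% G and C, is at 3.59; in 1/8 against whole oocytes at 18 cycles it is at -4.58.

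Genes of like composition give the background for each subunit. Of the 766 genes tested with at least 60% G and C, the class of Exosc6, 34.2% were called higher at 18 against 10 cycles and 0.653% lower, with a median log2 difference of 1.53. In the class of 55% to 60%, which holds Exosc5, 24.5% were higher and the median was 0.67. The class of 50% to 55%, which holds Exosc4, Exosc2, Exosc7, Exosc8 and Exosc10, had 13.8% higher, 8.06% lower and a median of -0.15, and that of 45% to 50%, which holds Exosc1 and Exosc3, 7.21% higher, 12.4% lower and a median of -0.59. Among genes below 45%, the class of Exosc9, 4.27% were higher, 19.4% lower, and the median was -1.08. In 1/8 against whole oocytes the class of Exosc6 had 31.9% lower and a median of -1.55, that of Exosc5 18.2% lower and a median of -0.78, that of Exosc4 8.44% lower and a median of -0.10, and that of Exosc9 14.4% higher and a median of 0.71. Exosc6, Exosc5 and Exosc4 lay further from zero than the medians of their classes in both comparisons. At 18 against 10 cycles Exosc3, Exosc4, Exosc7, Exosc8 and Exosc10 were positive where the medians of their classes were negative.

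Base composition was also entered as an offset per library and gene, an alternative chosen after the data had been seen. At 18 against 10 cycles Exosc6 then differed by 2.07 in place of 3.59, Exosc5 by 2.32 in place of 2.59 and Exosc4 by 2.16 in place of 2.44. Exosc3 differed by 1.66 and Exosc7 by 1.18, and all 5 still passed with edgeR. In 1/8 Exosc6 differed by -3.13 in place of -4.58, Exosc4 by -1.94 and Exosc5 by -1.51, and all 3 still passed. Drawing the counts of every library down to 1702062, likewise chosen after the data had been seen, left 5 subunits called higher at 18 against 10 cycles. Whether amplification, lysate amount or the oocytes sampled brought about the differences was not tested.

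The sequences below show the contrast in composition, as 90 bases from the middle of the longest coding exon, in capitals for G and C. Exosc6 (chr8:111056735-111056824, plus strand, GRCm38) and Exosc4 (chr15:76329489-76329578, plus strand) were taken because they have the highest coding G and C content, and Exosc8 (chr3:54729780-54729869, minus strand) as a ring subunit of low coding G and C content.
Exosc6: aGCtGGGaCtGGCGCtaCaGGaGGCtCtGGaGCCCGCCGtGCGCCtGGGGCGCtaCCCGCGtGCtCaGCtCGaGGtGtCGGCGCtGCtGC
Exosc4: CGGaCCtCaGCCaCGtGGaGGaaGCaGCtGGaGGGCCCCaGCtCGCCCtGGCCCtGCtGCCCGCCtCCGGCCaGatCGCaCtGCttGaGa
Exosc8: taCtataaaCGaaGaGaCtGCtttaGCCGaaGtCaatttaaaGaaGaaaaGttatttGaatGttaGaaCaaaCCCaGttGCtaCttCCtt
Of the 90 bases shown, 66 are G or C in Exosc6, 64 in Exosc4 and 30 in Exosc8. For Exosc4 and Exosc8 the stretches widen the contrast, with 71.1% and 33.3% G and C against 63.4% and 47.6% in the whole coding sequences. For Exosc6 the values are 73.3% and 75.2%. The stretches of Exosc6 and Exosc4, both from Rrp41-type subunits, hold few runs of A and T, and that of Exosc8 holds many.

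Some exosome genes overlap others in the annotation, which limits what their counts can separate. The single exon of Exosc6 lies wholly, with its 1326 bases, within an exon of the alanyl-tRNA synthetase gene Aars on the same strand. The annotation release used for counting is not stated, and reads were nevertheless assigned to Exosc6 in every library. Aars stood at 79.2 and 74.5 CPM at 10 cycles, 70.6 and 77.9 at 14, 155 and 144 at 18, 104 and 72.5 in 1/2, 126 and 129 in 1/4 and 66.2 and 59.9 in 1/8. Aars was highest and lowest in the same groups as Exosc6, over a smaller range. Reads counted as ambiguous between genes made up 2.64% to 2.98% of the libraries at 10 and 14 cycles and 4.10% and 3.89% at 18. The share was 3.98% to 4.53% in 1/2 and 1/4, and 3.19% and 2.98% in 1/8. How reads were divided between Exosc6 and Aars was not tested.

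Exosc4 shares 385 exonic bases with the oxoprolinase gene Oplah on the opposite strand, and whether counting used the strand is not settled. The methods give HTSeq with its default settings, which use the strand, while a tag in the names of the deposited tables may stand for counting without it, so how far reads of each gene entered the counts of the other is open. Oplah stood at 13.1 and 11.8 CPM at 10 cycles, 15.0 and 17.2 at 14, 72.6 and 32.8 at 18, 49.7 and 41.1 in 1/2, 45.2 and 47.5 in 1/4 and 16.5 and 5.88 in 1/8. Like Exosc4, Oplah was higher in whole oocytes at 18 cycles, 1/2 and 1/4 than in the other groups. Other overlaps on the opposite strand were 510 bases of Exosc9 with the cyclin gene Ccna2, 358 of Exosc2 with Gm13427, 355 of Exosc5 with Tmem91, 89 of Exosc8 with Supt20 and 53 of Exosc3 with Dcaf10. Gm13427 stayed at or below 0.588 CPM and Tmem91 at or below 1.09 CPM, while Ccna2 ranged from 231 to 424 CPM, above Exosc9 in every library, Supt20 from 77.4 to 262 and Dcaf10 from 20.8 to 70.9 CPM. Exosc1, Exosc7 and Exosc10 overlap no other annotated exon.

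Factors that act with the exosome were taken as lists, with median-ratio size factors; with ERCC factors no gene at all was called lower at 18 against 10 cycles or higher in 1/8, so those calls belong to the median-ratio scale. The counts of each list stand beside 12.3% of all genes higher and 10.8% lower at 18 cycles, and 6.96% higher and 8.71% lower in 1/8. Of the 4 exosome-bound factors (the nucleases Dis3 and Dis3l, and C1d and Mphosph6), none passed in either direction at 18 against 10 cycles (median log2 difference 0.23) or in 1/8 against whole oocytes (median 0.31). Of 12 nuclear cofactors, 2 passed as higher and 1 as lower at 18 cycles (median 0.44), whereas 1/8 had 1 higher and 2 lower (median -0.19), counts near those shares. The nucleolar adaptor Nop53 was higher by 2.16 ± 0.48 and lower in 1/8, at -3.04 ± 0.52, and Srrt, an adaptor of the cap-binding complex, differed by 1.29 ± 0.22 and -1.59 ± 0.33. The helicase Mtrex, which feeds RNA into the nuclear exosome, was lower at 18 cycles, at -1.25 ± 0.21, and missed the threshold in 1/8 at 1.23 ± 0.34. Mtrex levels were 92.4 and 84.6 CPM at 10 cycles, 34.8 and 27.0 at 18 and 80.7 and 87.0 in 1/8. The helicase was thus low where the ring subunits of the Rrp41 type were high. Its transcript holds 44.0% G and C, and genes below 45% also had a negative median at 18 cycles (-1.08) and a positive one in 1/8 (0.71).

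In the cytoplasm the SKI complex delivers RNA to the exosome. Of its 4 listed genes, 0 were higher and 1 lower at 18 against 10 cycles (median -0.86), and 1 higher and 0 lower in 1/8 (median 0.32). That gene was Ttc37, the scaffold of the complex, at -1.70 ± 0.25 and 1.55 ± 0.33. Of 10 other ribonucleases and decapping factors, 4 were higher and 1 lower at 18 cycles (median 0.05), among them Rexo1 at 1.79 ± 0.19 and the 5′–3′ exonuclease Xrn1 at -1.38 ± 0.30, and 0 higher and 1 lower in 1/8 (median 0.05). Of 11 subunits of the CCR4-NOT deadenylase, 2 were higher and 1 lower at 18 cycles (median -0.43), and 0 higher and 2 lower in 1/8 (median 0.33), near the shares of 12.3% and 10.8%, and of 6.96% and 8.71%, over all genes. Cnot11 at 2.47 ± 0.33 and Cnot3 at 1.66 ± 0.20 were the higher ones. The exosome, with 5 of 10 higher and a median of 0.75, had the highest median of these decay lists at 18 cycles, and no test was made of that difference.

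Another ring complex served for comparison. Of 14 subunits of the 20S proteasome, 4 passed as higher and 7 as lower at 18 against 10 cycles (median -0.91), whereas 1/8 had 7 higher and 1 lower (median 1.17). Psma2 differed by -2.89 ± 0.31 at 18 cycles and by 3.14 ± 0.35 in 1/8. Psmb3 was also lower at 18 cycles and higher in 1/8, and Psmb7 differed by -2.03 ± 0.24 and 2.27 ± 0.34. The transcript of Psma2 holds 39.4% G and C, less than any exosome transcript, that of Psmb7 48.7% and that of Psmb3 53.8%, near Exosc4. Of the 10 oocyte markers 0 were higher and 8 lower at 18 cycles (median -1.48), and 6 higher and 0 lower in 1/8 (median 1.23). Of the granulosa markers, 0 of 7 tested were higher and 1 lower at 18 cycles (median -0.69), and 1 of 6 tested was higher and 0 lower in 1/8 (median -1.72), in both cases Cyp19a1. None of the theca and blood markers tested was called in either comparison. On the median-ratio scale most oocyte markers thus lay on the other side from Exosc4, Exosc5 and Exosc6 in both comparisons, which share the 18-cycle whole oocytes.

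Genes with the pattern most like that of the exosome were sought among 8849 genes of at least 10 CPM on average, by the Pearson correlation of log2(CPM + 1) over the 12 libraries, which share depth and base composition effects. For Exosc10 they were Scpep1 with r = 0.96, Nxf1, an mRNA export receptor, with 0.92, and Ctnnb1, which encodes beta-catenin, with 0.91. For the summed exosome level they were Rdh5 with r = 0.98, Cirbp, a cold-inducible RNA-binding protein, with 0.98, and the ribosomal protein gene Rpl13 with 0.98. Scpep1 ranged from 18.1 to 69.9 CPM, and Rdh5 from 13.02 to 61.4 CPM. The catalytic subunit and the complex as a whole therefore had different nearest genes.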

How the data were processed

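Poly(A) RNA was sequenced from 12 libraries of single mouse oocytes or fractions of them. The authors' pipeline used cutadapt 2.5 for trimming, STAR 2.7.2a for alignment to GRCm38 and the ERCC sequences, and HTSeq 0.9.1 for counting. The paper's methods name later versions of these tools, so the HTSeq settings given there may not describe these counts. The values are the raw counts that the authors deposited per gene and per ERCC molecule, not normalized and not deduplicated. Reads on no feature made up 6.90% to 10.8% of each library. Replicates differed by more than counting noise, with a chi-square per degree of freedom of 10.0 to 16.7.

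CPM was computed over gene counts, and CPM per kilobase over the length of the principal transcript in GENCODE release 21. Tests were run with edgeR 4.0.16 (quasi-likelihood) in R 4.3.3, with a term for group only. The 6 whole-oocyte libraries formed 1 fit and the 8 libraries of 18 cycles another. Genes needed at least 5 counts in at least 2 libraries, and the threshold on the Benjamini-Hochberg adjusted p was 0.01. Size factors were median ratios over genes and ERCC molecules that passed the filter, or over ERCC molecules alone. Tables and plots were made with Python 3.11.15, pandas 2.3.3, SciPy 1.17.1 and matplotlib 3.10.9. No library was left out.

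All 10 subunits are named. From each list at most 4 genes that passed at 18 against 10 cycles or in 1/8 against whole oocytes could be named, largest difference first. The alike genes are the 3 of highest correlation. The subunits and lists were chosen with earlier results of these data known. Alternatives were DESeq2 1.42.0, TMM, ERCC size factors, total ERCC counts, no filter or at least 10 counts in every library, the replicate number as a block, all 12 libraries in 1 fit, whole oocytes at 10 cycles as reference, and leaving out each library. Offsets for base composition in 20 classes, counts drawn down to the smallest total and the length of all annotated exons were added after seeing the data.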

Additional observations from a re-analysis of the deposited data

How the results depend on the processing

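Leaving out 1 library at a time, the number of subunits called ran from 3 to 5 (higher) and 0 to 1 (lower) at 18 against 10 cycles and at 18 against 14 cycles, from 2 to 10, 8 to 10 and 9 to 10 (lower) in 1/2, 1/4 and 1/8 with ERCC factors, from 3 to 3 (lower) in 1/8 with median-ratio factors and from 1 to 2 (lower) in 1/8 against 1/4, and was 0 to 0 in the other comparisons and directions. Fits with 1 library left in a group assume that it varies like the other groups. Without the filter 1 subunit, Exosc2, was lower at 18 against 10 and 1 at 18 against 14 cycles, where more genes were tested. With ERCC size factors 9 were higher at 18 against 10 and 9 at 18 against 14 cycles, beside 47.6% and 47.9% of all genes, with Exosc1 (2.13 and 2.08), Exosc9 (2.11 against 10 cycles) and, uncalled, Exosc2 (0.88 and 0.82) turning positive. With at least 10 counts in every library 1 subunit was lower in 1/8 against 1/4, since Exosc6 was not tested. Against whole oocytes at 10 cycles, with ERCC factors, the calls in 1/2 were 4 higher and 0 lower, beside 6.55% and 2.13% of all genes, and those in 1/4 were 1 higher and 0 lower, beside 0.870% and 7.75%. Exosc3 to Exosc9 turned to 1.79, 2.34, 2.64, 2.51, 1.26, 0.90 and 0.013 in 1/2, and Exosc3 to Exosc6 to 0.42, 1.22, 1.18 and 2.13 in 1/4. With median-ratio factors and that reference, 5 were higher in 1/2, 4 higher in 1/4 and 0 lower in 1/8, beside 9.30%, 5.82% and 0% of all genes. Exosc4 to Exosc7 turned to 2.11, 2.41, 2.27 and 1.06 in 1/2, Exosc3 to Exosc6 to 1.08, 1.88, 1.83 and 2.78 in 1/4, and Exosc4 and Exosc5 to 0.16 and 0.74 in 1/8. Beyond the reference and scaling themselves the cause was not tested. With the replicate block 5 subunits were higher at 18 against 10 cycles and 3 lower in 1/8 with median-ratio factors, and no subunit's call changed. The labels do not tie the numbers of the fractions to their 2 source oocytes, and deviations of equal numbers correlated at -0.14 to 0.14 across genes of at least 10 counts in every library (-0.17 to 0.22 over all). Of the subunits' log2 differences under other settings, leaving out aside, 257 of 267 between cycle numbers, 186 of 204 with ERCC factors and 408 of 420 with median-ratio factors kept their side of the threshold without a called value changing sign. With 2 libraries a group, 2 counts of Exosc2 at 18 cycles and 7 of Exosc6 in 1/8 at the lowest, small differences in these genes could not be resolved.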
